A study of Mus musculus with 2 samples.

Results

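The nuclear genes for the subunits of oxidative phosphorylation were examined in mouse spleen on 2 one-colour Agilent arrays, 1 hybridised with RNA of Loxl3 wild-type (Loxl3+/+) spleen and 1 with RNA labelled Loxl3 knock-out (Loxl3-/-). Members were all non-control probes whose accession maps, through RefSeq, to a symbol that starts with Nduf, Uqcr, Atp5 or Cox4 to Cox8, or that is Sdha, Sdhb, Sdhc, Sdhd, Cyc1 or Cycs. This gave 95 of 20655 named genes, on 128 probes and 137 spots. Of them 93 were called well above background by the scanner software on 1 or both arrays, 92 of them on both, and all values below are over these 93. Both spleen samples came from untreated, healthy males. The labels give neither strain nor age, and do not say whether animals were pooled or which part of Loxl3 is deleted.

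Oxidative phosphorylation takes electrons from NADH and succinate through membrane complexes of the mitochondrion to oxygen, and uses the proton gradient so built to make ATP. Complex I accepts electrons from NADH and complex II from succinate. Complex III passes them to cytochrome c, complex IV hands them to oxygen, and complex V, the ATP synthase, makes ATP. The complexes other than complex II also hold subunits encoded by mitochondrial DNA, for which 0 named probes were present. In the spleen, resting lymphocytes draw much of their ATP from this pathway, and activated cells add glycolysis. Transcription factors known for acting on these genes include NRF1, the ETS factor GABP and YY1.

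The promoters printed next were picked because they hold the NRF1 letters together with another motif, or several times, so they show these letters and are not typical of the members. Promoter windows of RefSeq (assembly GRCm38.p6, from 250 bases before to 50 after the gene start) matched 77 of the 95 genes. The NRF1 letters (GCGCA and GCGC with any 1 base between them, on either strand) were in 19 of these 77 genes (24.7%), against 5.19% of all 27025 genes with a promoter window. The ETS letters CCGGAAG were in 19 of 77 (24.7%), against 9.93% of all. The YY1 letters AAGATGGCG were in 8 of 77 (10.4%), against 1.64%. At least 1 of the motifs was in 39 genes (50.6%), against 15.1% of all genes. The motifs were not particular to the subunit genes: of 69 mitochondrial ribosomal protein genes with a window, 18.8% held the NRF1, 37.7% the ETS and 11.6% the YY1 letters, and 59.4% held at least 1 of them. Base composition was not matched between these groups, and a match describes letters, not binding. The ETS and YY1 letters can overlap by AAG. Motif letters are in capitals.
Cox6a1, GRCm38.p6 chr5:115348909-115349208, minus strand: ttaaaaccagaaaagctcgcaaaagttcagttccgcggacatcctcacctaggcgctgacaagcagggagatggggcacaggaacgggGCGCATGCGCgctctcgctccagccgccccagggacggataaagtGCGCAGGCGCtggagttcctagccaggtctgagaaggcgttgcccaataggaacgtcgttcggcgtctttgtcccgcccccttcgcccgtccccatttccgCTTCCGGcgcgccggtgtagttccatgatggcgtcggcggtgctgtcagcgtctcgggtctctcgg
Ndufb4, GRCm38.p6 chr16:37654319-37654618, minus strand: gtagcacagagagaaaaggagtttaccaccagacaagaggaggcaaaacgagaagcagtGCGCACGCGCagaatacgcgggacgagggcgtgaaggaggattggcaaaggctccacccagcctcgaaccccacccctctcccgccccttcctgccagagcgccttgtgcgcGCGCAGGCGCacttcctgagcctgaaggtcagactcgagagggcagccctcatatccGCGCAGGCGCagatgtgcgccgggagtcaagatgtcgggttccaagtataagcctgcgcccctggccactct
Ndufs6, GRCm38.p6 chr13:73328433-73328732, minus strand: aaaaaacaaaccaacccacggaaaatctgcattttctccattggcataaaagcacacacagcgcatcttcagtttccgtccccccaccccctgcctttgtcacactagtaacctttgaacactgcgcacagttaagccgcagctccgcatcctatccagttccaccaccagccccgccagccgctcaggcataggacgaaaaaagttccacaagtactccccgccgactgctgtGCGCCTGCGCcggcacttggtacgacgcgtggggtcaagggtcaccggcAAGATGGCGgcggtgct
Sdhd, GRCm38.p6 chr9:50603800-50604099, minus strand: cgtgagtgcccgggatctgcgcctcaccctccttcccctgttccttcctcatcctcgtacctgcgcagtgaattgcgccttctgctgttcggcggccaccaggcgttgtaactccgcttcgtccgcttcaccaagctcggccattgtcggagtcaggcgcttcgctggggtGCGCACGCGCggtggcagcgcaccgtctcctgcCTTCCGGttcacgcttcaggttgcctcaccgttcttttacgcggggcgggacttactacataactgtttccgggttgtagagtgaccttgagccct
Cox6a1 holds the NRF1 letters at 2 places and the ETS letters at 1, Ndufb4 the NRF1 letters at 3 places, Ndufs6 the NRF1 and YY1 letters once each, and Sdhd the NRF1 and ETS letters once each.

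Each value is an Agilent processed signal, a background-corrected brightness. Differences are knockout-labelled minus wild type on the log2 scale, after each array's 75th percentile (974 and 1400) was subtracted on the log2 scale, and each gene stands by its brightest probe. A design of 1 array per group has no residual degrees of freedom and gives no p-value or replicate check, and every value describes these 2 arrays. Errors after ± are the scanner software's own, carried to the log2 difference. Their median over the 93 genes was 0.204, and over 268 probes with repeated spots the difference had a median SD of 0.112. The Loxl3 probe read 117 on the wild-type and 125 on the knockout-labelled array (−0.43 ± 0.29), so it does not settle the label, and "knockout-labelled" is used throughout. On that array all 8 pancreas acinar markers were at least 2-fold higher (median 4.20), while 7 of 8 neutrophil and precursor markers (median −1.62) and 5 of 6 platelet markers (median −1.80) were at least 2-fold lower. All 6 proliferation markers (median −0.76) and 5 of 8 erythroid markers (median −0.75) were below 0. Markers of the resident cells had medians of 0.08 over 6 B cell, −0.15 over 6 T cell and −0.07 over 6 red pulp macrophage genes. Once the trend on signal level, described below, was removed, these 3 medians were 0.28, 0.02 and 0.30.

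The subunit genes had slightly lower scaled values on the knockout-labelled array, mostly by less than 1.5-fold, and a single gene, Cox6a2, went far the other way. Before scaling, 74 of the 93 genes had the higher signal on the knockout-labelled array, by a median ratio of 1.13. The median ratio over all 13714 measured genes was 1.35, and the 75th percentiles differ by 0.52 on the log2 scale, so after scaling 83 of 93 members were below 0, against 59.2% of all genes. Their median difference was −0.34 (quartiles −0.48 and −0.20), against −0.09 over all genes. In bulk RNA, fewer cells of a type and less RNA per cell cannot be told apart, and the part of the neutrophil, platelet, erythroid, proliferation and pancreas differences in these values was not tested.

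Few members passed a fold threshold. At least 2-fold higher was 1 of 93, Cox6a2, where 2.57% of all genes were, and at least 2-fold lower were 0 of 93, where 2.26% of all genes were. At least 1.5-fold lower were 11 of 93 (11.8%), where 9.47% of all genes were. At least 1.5-fold higher were 2, Cox6a2 and Cox8b, where 8.04% of all genes were. Scaling on each array's median gave 23 lower and 1 higher member at 1.5-fold, and a 75th percentile taken over the probes detected on both arrays gave 2 lower and 2 higher. Over all genes at 2-fold, the share that was higher was 53.2% with the 75th percentile, 41.3% with the array median and 70.9% with the percentile of probes detected on both, the last of which moved the median of all genes from −0.09 to 0.05.

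The size of the difference followed the signal level, for all genes and for the members. Over all measured genes the difference fell with the mean level (Spearman rho −0.32, Pearson r −0.25, across 13714 genes, which are not independent replicates). Sorted into deciles of signal, the lowest decile of all genes had a median of 0.10, the fifth −0.01, the eighth −0.18 and the highest decile −0.34. The members sit at the bright end: 72 of 93 (77.4%) lay in the 3 highest deciles and 50 (53.8%) in the highest. In the highest decile the members' median was −0.40, and all 50 were below 0, where 89.3% of all genes there were. Of these 50, 10 (20%) were at least 1.5-fold lower, against 18.3% of all genes in that decile. The 21 members in the 7 lower deciles had a median of −0.06, with 11 below 0, against 0.00 and 50.2% for all genes at those levels. The trend has no replicate here, and its cause was not tested.

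**Figure D1:**
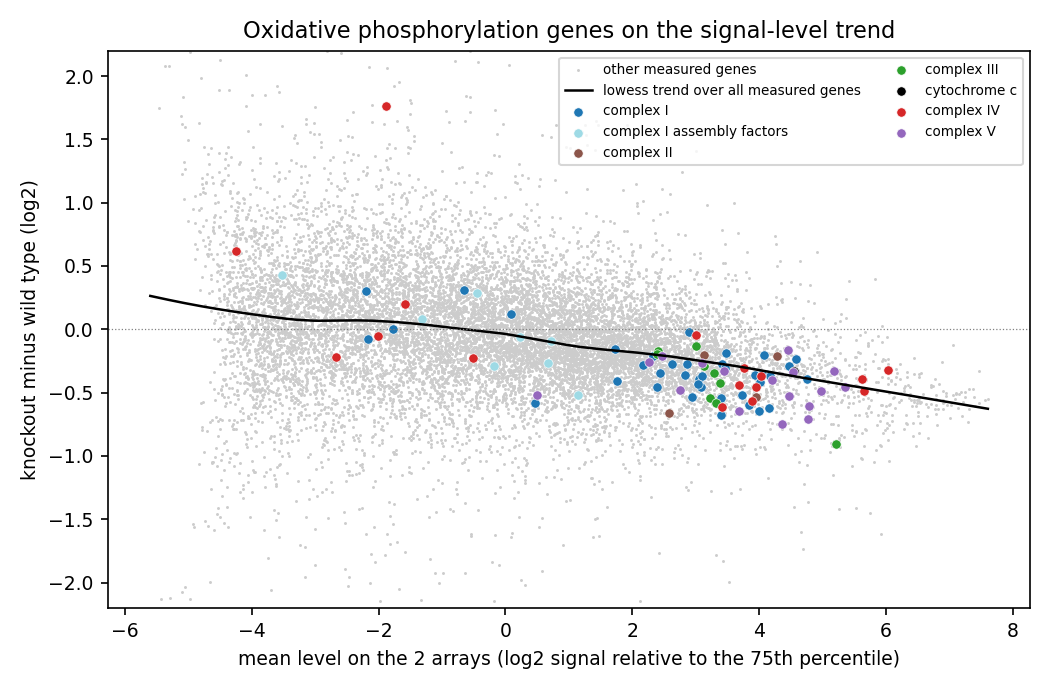
Difference (knockout-labelled minus wild type, log2) against mean level relative to the 75th percentile, for the 93 measured members in colour by complex and other genes in grey, with the lowess trend as a black line; genes past ±2.2 are outside the axis. The members crowd at the bright end, where the trend lies below 0, and Cox6a2 stands alone at 1.77.

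With a lowess trend over all genes subtracted, the members came close to 0. Their median was −0.06 (quartiles −0.22 and 0.03), with 65 of 93 (69.9%) below 0, against 50.4% of all genes. At 2-fold, Cox6a2 remained the 1 higher member, where 2.38% of all genes were, and 0 were lower, where 2.19% were. At 1.5-fold, 1 member remained higher (Cox6a2), where 8.09% of all genes were, and 0 were lower, where 7.38% of all genes were. In the 3 highest deciles, members spread less about the trend (SD 0.165 over 72 genes) than all genes there (SD 0.386 over 4114 genes). The quartiles stood less far apart in width than the SDs: −0.23 and −0.0001 for members, −0.17 and 0.17 for all genes there. Of the 72, 0 passed 1.5-fold in either direction, where 7.63% of all genes there did. In those deciles 54 of 72 members (75%) lay below the trend, against 50.7% of all genes. Of the 93 members, 5 differed from the trend by more than 2 software errors: Cox6a2 above it and Ndufs8, Uqcrh, Sdhd and Atp5o below it. The same count was not made over all genes, so it cannot be set against a background share.

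Complex by complex, the scaled medians ran from −0.46 for complex V to −0.31 for complex IV. Complex V also had the lowest trend at its members' own levels, while the order of the other complexes by median was not their order by trend. Complex I had a median of −0.36 over 38 genes (trend −0.25), complex II −0.37 over 4 (trend −0.29), complex III −0.34 over 9 (trend −0.26), complex IV −0.31 over 16 (trend −0.28) and complex V −0.46 over 17 (trend −0.35). The 8 complex I assembly factors of the Ndufaf series, which lie at lower signal (trend −0.04), had a median of −0.08. With the trend removed, the medians were −0.07, −0.08, −0.08, −0.04 and −0.06 for complexes I to V and 0.00 for the assembly factors. Differences between the complexes could not be tested with 1 array per group. Cycs, the cytochrome c gene that carries electrons from complex III to IV, read 25723 on the wild-type and 29441 on the knockout-labelled array, at −0.33 ± 0.20 and 0.04 from the trend.

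**Figure D2:**
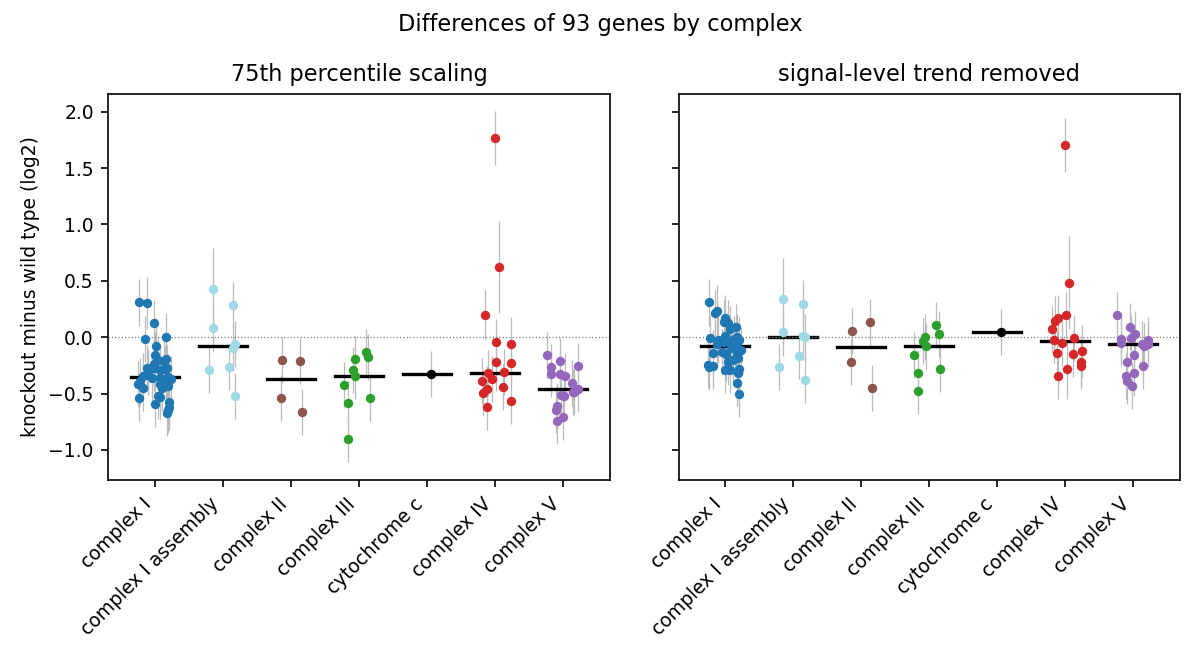
Log2 difference of each of the 93 measured members (points, with the scanner software's error as a bar) and the median of each group (black line), after 75th percentile scaling on the left and with the signal-level trend removed on the right. On the left, 83 points lie below 0; on the right the complex medians are between −0.08 and −0.04.

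Among the complex I genes, 34 of 38 were below 0, where 59.2% of all genes were. With the trend removed 29 of 38 were, against 50.4% of all genes. Core subunits that hold the flavin or iron-sulphur clusters included Ndufv1 (−0.19), Ndufv2 (−0.43), Ndufs1 (−0.35), Ndufs7 (−0.37) and Ndufs8 (−0.58), and the core subunit Ndufs3, which holds neither, was at −0.35. Ndufs8, whose protein binds iron-sulphur clusters close to the ubiquinone site, read 1655 and 1593 on the wild-type and knockout-labelled arrays, −0.58 ± 0.20, and lay −0.50 from the trend, farther below it than any other member.

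The lowest complex I value was that of Ndufa5, an accessory subunit of the peripheral arm, which read 12995 and 11691 (−0.68 ± 0.20). Its second probe, at 1300 and 1101, gave −0.76, so both of its probes were lower. Ndufb10, of the membrane arm, read 19515 and 17956 (−0.64), and the X-linked Ndufa1 read 21590 and 20156 (−0.62). Ndufa7 read 17189 and 16354 (−0.59). These 4 are the complex I genes past 1.5-fold. Their lower unscaled signal on the knockout-labelled array follows from that threshold, since scaling shifts every difference by only 0.52. At the other end, Ndufa10 read 558 and 994 (0.31 ± 0.21) and Ndufa4l2, a paralogue induced by hypoxia, read 192 and 340 (0.30 ± 0.23).

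The complex I genes, those named above among them, are grouped next by symbol series, and together they ran from −0.68 to 0.31. All 10 Ndufb genes, most of which encode parts of the membrane arm, were below 0, from −0.64 to −0.02 with a median of −0.33. The 15 Ndufa genes had a median of −0.28 with 12 below 0, the 8 Ndufs genes −0.37 with 7 below 0, the 3 Ndufv genes −0.42 and the 2 Ndufc genes −0.32. Ndufab1, the mitochondrial acyl carrier protein, was at 0.00 from a dim probe (286 and 411) and lay −0.06 from the trend. Ndufb8, often used as a marker of assembled complex I, was at −0.02 (7302 and 10352) and lay 0.22 from the trend. Of the assembly factors, Ndufaf8 was lowest (2585 and 2592, −0.52 ± 0.20), then Ndufaf6 (−0.29) and Ndufaf1 (−0.27), while Ndufaf5 (73.1 and 141, 0.43 ± 0.37) and Ndufaf2 (0.29) were highest. Below 0 were 5 of 8 (62.5%), near the 59.2% of all genes.

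All 4 complex II genes were below 0, where 59.2% of all genes were. With the trend removed 2 of 4 were, against 50.4% of all genes. By brightest probes, the pair of membrane anchors was lower than the catalytic pair. Sdhd read 7300 on the wild-type and 6631 on the knockout-labelled array (−0.66 ± 0.20) and lay −0.45 from the trend. Sdhc read 18290 and 18089 (−0.54), but its second, dimmer probe, at 829 and 1411, gave 0.24. Sdha, the flavoprotein, read 9197 and 11483 (−0.20), and Sdhb, the iron-sulphur subunit, 20351 and 25281 (−0.21). Where each gene was given the median over its probes, the complex II median was −0.17. Sdhc was then at −0.15, no longer lower than Sdha, so the order of the pairs depends on the probe taken.

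All 9 complex III genes were below 0, where 59.2% of all genes were. With the trend removed 6 of 9 were, against 50.4% of all genes. Uqcrh, the hinge protein thought to help cytochrome c dock, was the lowest of all members: it read 49734 on the wild-type and 38153 on the knockout-labelled array, −0.91 ± 0.20 or 0.534 times the wild-type level, and its second probe gave −0.64. Uqcrb, a small subunit near the ubiquinone site, was at −0.58 with its brightest probe (11923 and 11421), and its other probes at −1.26 (8065 and 4844) and −0.29 (1212 and 1423). The first of these was 1 of only 2 member probes at least 2-fold lower. Uqcr11 was at −0.54, Uqcr10 at −0.43 and Uqcrq at −0.34. The large core proteins and redox subunits had smaller values, with Uqcrc2 at −0.29, Uqcrc1 at −0.20, Cyc1 at −0.18 and Uqcrfs1, the Rieske protein, at −0.13. Uqcrc2 was printed 10 times on each array. Its spots ranged from 8355 to 10221 (median 9529) on the wild-type and from 9561 to 13076 (median 10855) on the knockout-labelled array, and the difference over the 10 spots was −0.29 ± 0.156 (SD of spots, not of animals). The unscaled signal ranges of its spots overlap, while the scaled difference ran from −0.56 to −0.06 over the 10 spots.

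Complex IV held the single large difference. Cox6a2, the heart and skeletal muscle isoform of subunit 6a, had a signal of 143 on the wild-type and 698 on the knockout-labelled array, and differed by 1.77 ± 0.24 after scaling, or 3.40-fold higher, from 1 probe. It was above 1.30 in all 11 ways of processing tried and at 1.70 with the trend removed. Cox6a1, the isoform of most tissues, read 71493 and 82272 (−0.32 ± 0.20). Of the muscle markers, Ckm, Mb, Myh6 and Actn2 were well above background on neither array, Acta1 on the knockout-labelled one alone (69 and 112), and Tnnt2 was at −0.84. Cox6a2 transcripts are also known from mouse plasmacytoid dendritic cells, and a list of 8 genes of those cells, written after this value was seen, had a median of −0.30 over 7 measured genes, with Siglech at −0.58, Bst2 at −0.60 and Klk1 at 1.15. In the order of protein-coding genes on chromosome 7 (GRCm38.p6), the neighbours on one side are Itgad (2868 and 4337, 0.07) and Itgax (3027 and 8209, 0.92 ± 0.20), and on the other 9130023H24Rik, not measured, and Armc5 (−0.62). The part of dendritic cells, muscle or this region in the value was not tested.

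None of the other isoform genes was at least 2-fold higher. Cox8b, Cox4i2 and Ndufa4l2 were above 0 in every way of processing in which they were measured, while Cox7a1 and Cox6b2 were below 0 in every one. Cox8b, the muscle and brown fat isoform of subunit 8, passed the background call on the knockout-labelled array but not on the wild-type array. Its 1 probe had signals of 41.2 on the wild-type and 91.0 on the knockout-labelled array (0.62 ± 0.41). Against the lowest wild-type signal well above background it was 1.51-fold higher, a bound that leaves out this error. Over 10 ways of processing its difference ran from 0.11 to 0.77. It stands beside adipocyte markers that were all higher (5 of 5 measured, median 0.74), while the brown fat gene Ucp1 was well above background on neither array. The part of fat in this value was not tested. Cox7a1, a further muscle isoform, read 165 and 204 (−0.22 ± 0.26). Cox4i2, the isoform known from lung and hypoxia, read 303 and 499 (0.20 ± 0.22), and Cox4i1, its ubiquitous counterpart, 18076 and 20062 (−0.37). The testis isoforms differed among themselves in detection: Cox6b2 was at −0.23 with signals of 740 and 909, while Cox8c (8.36 and 11.3) and Cox7b2 (10.5 and 12.5) were well above background on neither array and have no difference.

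The widely used complex IV subunits lay within the range of the other complexes. Cox7a2 was lowest at −0.61 ± 0.20 (12953 and 12151), then Cox7b at −0.56 and Cox7a2l, which helps join complexes III and IV, at −0.49. Cox5a was at −0.46, Cox6c at −0.44, Cox8a at −0.39 and Cox5b at −0.31. Cox6b1 was at −0.06 from a dim probe (246 and 340) and lay −0.12 from the trend. Cox7c was at −0.05 (7968 and 11085) and lay 0.20 from the trend. Cox6a1 and Cox4i1 are given above. Of the 16 measured complex IV genes, 13 were below 0, where 59.2% of all genes were. With the trend removed 10 of 16 were, against 50.4% of all genes. Ndufa4, named as a complex I gene but found in complex IV, read 17576 and 21987 (−0.20). Moving it and Ndufa4l2 to complex IV gave a complex IV median of −0.27.

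**Figure D3:**
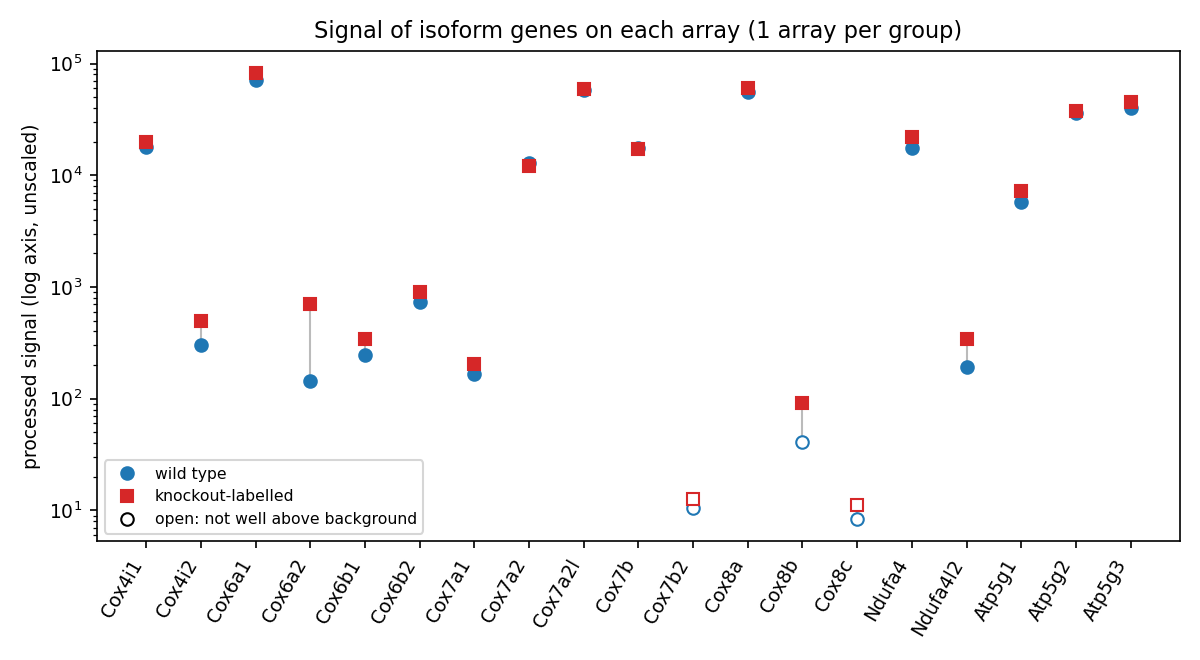
Processed signal of isoform genes on the wild-type (circles) and knockout-labelled (squares) array, unscaled, on a log axis, with open symbols for spots not well above background. The vertical gap is widest for Cox6a2 (143 and 698); levels of different probes are not comparable with each other.

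All 17 complex V genes were below 0, where 59.2% of all genes and 89.3% of those in the highest decile were. With the trend removed, 14 of the 17 were, against 50.4% of all genes. In the catalytic head, Atp5e, the epsilon subunit, was lowest, at 25906 and 22215 (−0.74 ± 0.20), followed by the alpha subunit gene Atp5a1 at 34246 and 30075 (−0.71). The beta, gamma and delta subunit genes were nearer to 0, with Atp5b at −0.46, Atp5c1 at −0.27 and Atp5d at −0.26. Atp5c1 had a second probe, at 2519 and 4569, that gave 0.34. Of the stalk genes, Atp5o, which joins the stalk to the head, read 1649 and 1657 (−0.52) and lay −0.43 from the trend. Atp5h was at −0.34, Atp5pb at −0.33 and Atp5j at −0.16, the value of the complex nearest to 0.

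The membrane part of complex V held the genes Atp5mpl (15640 and 14403, −0.64), Atp5l (−0.61), Atp5k (−0.52), Atp5md (−0.48) and Atp5j2 (−0.40). Atp5l had 5 probes, all below 0, from −0.61 to −0.05, and the second probe of Atp5k (14037 and 8834) was at −1.19, the other member probe at least 2-fold lower. Atp5g1, Atp5g2 and Atp5g3 encode the same mature subunit c, the ring that turns with the proton flow. Atp5g2 was at −0.48 (36439 and 37420) with a second probe at −0.91, Atp5g3 at −0.33 (39642 and 45342) and Atp5g1 at −0.21 (5804 and 7188). With these brightest probes the 3 genes differ from one another by little more than 1 software error.

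Probes of the same gene gave the size of a further technical spread. For 23 members with several detected probes, the range between probes had a median of 0.21 and reached 0.97 (Uqcrb). In 19 of them all probes had the same sign, and the exceptions were Ndufv3, Sdhc, Atp5c1 and Ndufaf4, whose dimmer probe was above 0. The brightest probe was the lower in 15 of the 23 when set against the dimmest probe of its gene. RefSeq also lists 16 pseudogenes under the rule's symbols, none with a probe of its own, and signal shared with such copies cannot be told apart. Ndufb1, Ndufa11b, Ndufb4b, Ndufb4c, Ndufs6b and Cox6c2 had no matched probe.

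Members with and without the promoter motifs are set side by side, and the gaps between them could not be tested. Those with the NRF1 letters had a median of −0.32 (19 genes) and those without −0.35 (57 genes). With the ETS letters the median was −0.39 (19 genes) and without −0.29 (57 genes), and with the YY1 letters −0.39 (8 genes) and without −0.32 (68 genes). The quartiles overlap in each pair. With the trend removed, the medians with and without the letters were −0.01 and −0.06 for NRF1. They were −0.16 and −0.04 for ETS, and −0.11 and −0.05 for YY1.

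Genes outside the rule that serve the same pathway or its surroundings are given beside the 59.2% of all genes that were below 0. With the trend removed, that share of all genes was 50.4%. Of 37 measured assembly factors of the complexes, 29 were below 0, with a median of −0.18 (−0.14 with the trend removed), and 0 were at least 2-fold changed. Uqcc3 for complex III (−0.63) and Atpif1, the ATP synthase inhibitor (−0.56), were lowest, and Tmem126b for complex I (0.38) and Cox15, of haem A synthesis (0.36), highest. Of 16 regulators of mitochondrial biogenesis, 9 (56.3%) were below 0 (median −0.15), and 8 with the trend removed, with the nuclear receptor gene Esrra (−0.66) and the mitochondrial transcription factor gene Tfb2m (−0.59) lowest and Gabpb1 (0.28) and Polg (0.26) highest. Of 18 genes of the TCA cycle and pyruvate dehydrogenase, 14 were below 0 (median −0.19), and with the trend removed 9 were (median 0.01), from Pdhb (−0.80) and Idh3g (−0.47) to Pdha1 (0.24) and Fh1 (0.66). Of 19 glycolysis genes, 18 were below 0 (median −0.38, and −0.06 with the trend removed). Hk3, a hexokinase gene of myeloid cells, was the only one 2-fold lower (−1.04). Neutrophil markers were lower as well, and the part of these cells in the Hk3 value was not tested. Hk1 was at −0.67, Eno1 at −0.02 and Pfkl at 0.28. Mitochondrial carriers and chaperones had a median of −0.33, with 15 of 16 below 0 (median −0.07 with the trend removed), from Hspd1 (−0.79) and Hspe1 (−0.73) to Vdac2 (−0.01) and Tomm40 (0.05).

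Other large protein assemblies are set beside these values. Cytosolic ribosomal protein genes had a median of −0.52 over 84 genes and −0.02 with the trend removed, and 27 of the 84 (32.1%) were at least 1.5-fold lower and 4 at least 2-fold lower, beside 11 and 0 of the 93 members. Proteasome subunit genes had −0.30 over 37 and −0.04 with the trend removed, and mitochondrial ribosomal protein genes −0.26 over 77 and −0.10. Below the trend lay 47 of 84, 22 of 37 and 57 of 77 of these genes, beside 65 of 93 oxidative phosphorylation genes and 50.4% of all genes. Differences between these assemblies could not be tested.

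**Figure D4:**
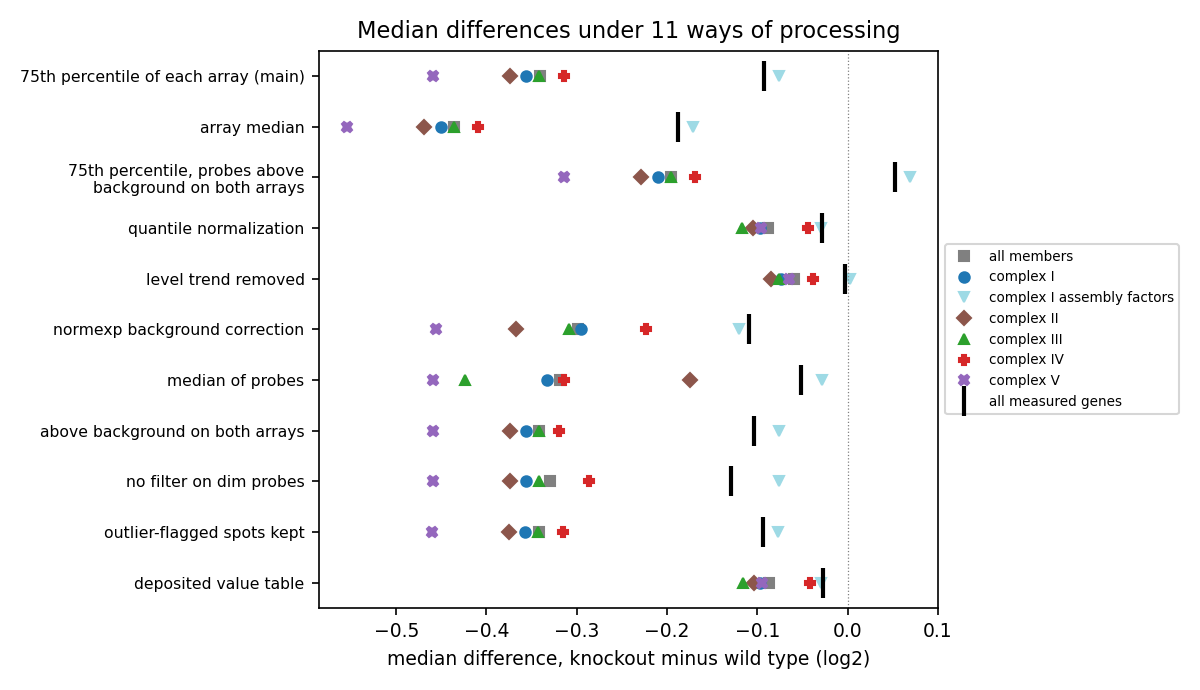
Median log2 difference (knockout-labelled minus wild type) of all 93 members, of each complex and, as a black bar, of all measured genes, under 11 ways of processing; the number of members is 92 or 95 where the filter on dim probes changes. The members' median runs from −0.44 with array median scaling to −0.06 with the trend removed, and lies below the median of all genes in each row.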

How the data were processed

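Spleen RNA of the 2 samples was measured on 2 arrays of 1 slide, scanned together. Per the file headers, the deposited intensity values come from Agilent Feature Extraction 11.0.1.1 (protocol GE1_1100_Jul11, array build mm9), which corrected the background within each array. The value table of the authors is deposited in log2 units and, from its values, is quantile-normalized (both columns have a median of 6.71, and 3 of 39420 probes differ by over 1 from quantile-normalized scanner differences). Other steps are not given in the sources used here.

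Control and outlier-flagged spots were left out (0 member spots were flagged or saturated), and log2 processed signals of a probe's spots were averaged and scaled on each array's 75th percentile. Accessions were matched to RefSeq of GRCm38.p6 (27226 of 39420 probes), and a gene stands by its brightest probe well above background on at least 1 array. Trends were fitted with lowess (statsmodels 0.14.6, fraction 0.3, 3 iterations), and normexp used limma 3.58.1 with an offset of 50. The functions were tested on simulated data. A gene above background on 1 array has a bound against the higher of its dim signal and the lowest signal well above background on that array.

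Genes were named by rule: members past 2-fold, the 3 lowest and 2 highest of each complex, those not above background on both arrays, isoforms, and the 2 lowest and 2 highest of the pathway lists (not of the ribosomal and proteasome lists). Other members are named for completeness. Members and lists were chosen with earlier results of these data known. The values of 1 complex I gene are not reported here.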

Additional observations from a re-analysis of the deposited data

How the results depend on the processing

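The direction of the medians of all members and of complexes I to V held in each alternative tried, but their size depended on the scaling. With the trend on signal level removed, the medians were −0.0598 for all members and −0.0743, −0.0847, −0.0763, −0.0381 and −0.0643 for complexes I to V. With quantile normalization they were −0.0880, and −0.0967, −0.105, −0.117, −0.0435 and −0.0955. With the deposited value table they were −0.0874, and −0.0965, −0.104, −0.116, −0.0419 and −0.0949. Under each of these, 0 members were at least 1.5-fold lower and 1 higher. With the 75th percentile taken over probes detected on both arrays they were −0.20, and −0.21, −0.23, −0.20, −0.17 and −0.31, with 0.0695 for the complex I assembly factors and 2 members at least 1.5-fold lower. With array medians 23 members were at least 1.5-fold lower and 1 higher. With normexp, or with probes above background on both arrays, 1 was at least 1.5-fold higher, since Cox8b dropped below the threshold or was left out. Where a gene took the median over its probes, complex II was at −0.17. Quantile normalization and the lowess both act on the level trend by construction. The files hold no mean signal, so normexp used the median signal in its place. Over the settings in which each member was measured (11, and 10 for Cox8b), 59 members stayed below 0, 7 above 0 and 27 changed sign. No paired analysis was possible because each group has 1 array. Animal-to-animal variation was not measured, and members with signals near background, such as Cox8b and Ndufaf5, have the largest errors.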
